A study of Mus musculus with 16 samples.

Results

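The 3 genes described here are PRKAA1, HNF4A and PPARA, which encode a catalytic subunit of AMP-activated protein kinase (AMPK) and a pair of nuclear receptors of hepatocytes. They were read on a reverse-phase protein array, in which tissue lysates are spotted and each antibody is applied to a copy of the spots. The members were taken as all antibodies whose name begins with 1 of these gene symbols. They came to 6 of the 158 antibodies, namely PRKAA1, PRKAA1_P-T172, HNF4A, PPARA_1, PPARA_2 and PPARA_3.

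The 16 samples were liver tissue of male C3H/HeJ mice in 4 groups. Ha-ras-mutated tumors (3 samples) and the control livers labelled with them (3 samples) carry the treatment labels H2O and control. Ctnnb1-mutated tumors (7 samples) and their control livers (3 samples) carry the label phenobarbital (PB), an inducer of hepatic drug metabolism that promotes tumors in mouse liver. All groups belong to a design in which mice were given diethylnitrosamine (DEN), a carcinogen activated in hepatocytes, at 10 or 90 µg per g body weight and an age of 2 or 6 weeks. A treatment-free interval of 2 weeks came next, and then a diet with 0.05% PB or without it for 28 to 36 weeks. The sources used here do not tie a dose or an age to a sample, and the control livers are labelled only as non-mutated tissue. On how long treatment lasted the labels differ, with 27 weeks among the sample characteristics and 28 days of drinking water in the protocols. Each tumor genotype came from 1 arm, so genotype and PB cannot be told apart when the tumors are compared with each other. Whether each sample is a different animal is not stated in the labels, and the p-values then cover only the spread among the samples at hand, part of which may be technical.

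AMPK is a heterotrimeric energy sensor, and its alpha subunit, PRKAA1 or PRKAA2, carries the kinase activity. When AMP or ADP accumulates relative to ATP, upstream kinases such as STK11 (LKB1) phosphorylate a threonine in the activation loop of the alpha subunit, and the active kinase restrains fat and protein synthesis and favours fatty acid oxidation. PRKAA1_P-T172 is named for that threonine, around which PRKAA1 and PRKAA2 are alike in sequence. HNF4A is a transcription factor that maintains hepatocyte identity, including the genes of drug metabolism, bile acid synthesis and plasma proteins. PPARA is a fatty acid-activated receptor that binds DNA with RXRA and drives the hepatic genes of fatty acid oxidation and ketogenesis. Neither the epitopes nor what tells the 3 PPARA antibodies apart is given in the sources used here.

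The level of an antibody is given below as its deposited fluorescence intensity divided by the sample's median over antibodies, and differences are on the log2 scale of that level. It compares samples for 1 antibody and not antibodies with each other, since antibodies differ in affinity. The sample medians lay between 0.47 and 0.79 intensity units. The number of arrays limits the precision of all values. HNF4A read 9.26 to 21.9 times its blank, the signal of secondary antibody alone, in all 16 samples. PRKAA1_P-T172 read 6.23 to 50.5 times its blank, PPARA_2 11.6 to 20.1 times and PRKAA1 2.15 to 3.99 times. PPARA_1 and PPARA_3 were faint, at 1.80 to 3.05 and 1.52 to 2.60 times their blank. Of the hepatocyte markers listed for this work the array held HNF4A, GLUL and CYP2E1, and it held no listed marker of biliary, stellate, endothelial or immune cells. In lysates of whole tissue, fewer hepatocytes and less protein per hepatocyte cannot be told apart.

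**Figure D1:**
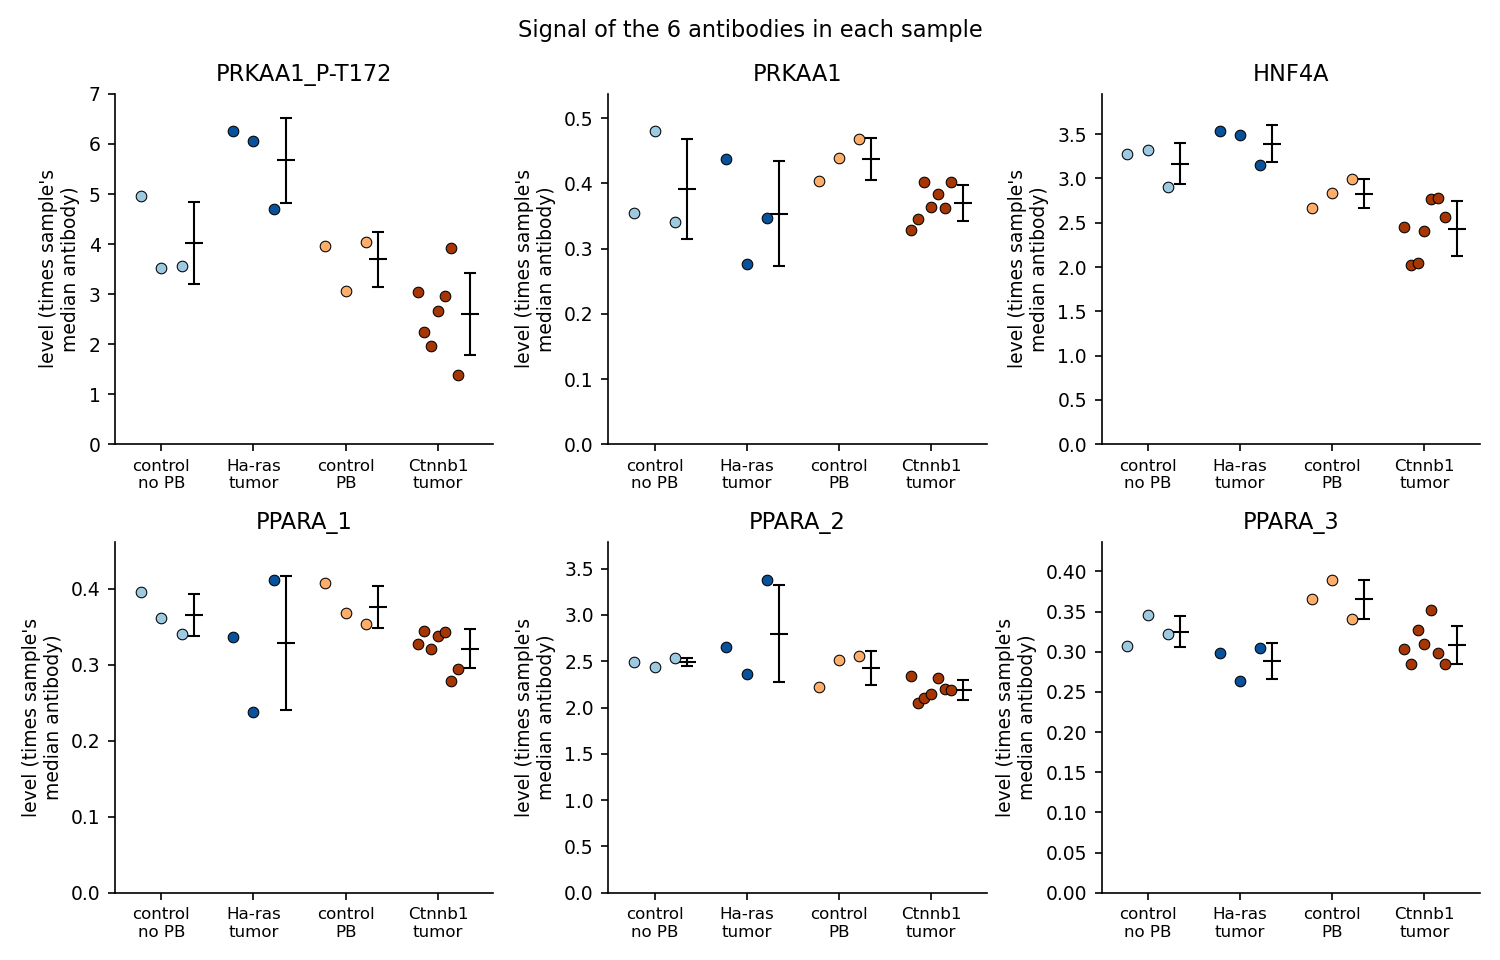
Level of each of the 6 antibodies (signal over the sample's median antibody) in the 16 samples, with 1 point per sample and the mean ± SD of each group beside it. PRKAA1_P-T172, HNF4A and PPARA_2 lie lower in all 7 Ctnnb1 tumors than in any of the 3 Ha-ras tumors, while PRKAA1, PPARA_1 and PPARA_3 overlap between the tumors.

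The phosphorylated activation loop of AMPK showed the widest range of the 6 antibodies. PRKAA1_P-T172 had levels of 6.26, 6.06 and 4.70 in the 3 Ha-ras tumors and of 4.96, 3.51 and 3.57 in the 3 control livers without PB. It had levels of 3.97, 3.07 and 4.04 in the 3 PB control livers, and the 7 Ctnnb1 tumors ran from 1.39 through a median of 2.67 to 3.93. The Ha-ras tumors were highest on average, the Ctnnb1 tumors lowest and the means of the control livers of both arms lay between them. All 7 Ctnnb1 tumors were lower than every Ha-ras tumor, while each tumor group overlapped its own control livers. The group means were 5.67 ± 0.848 (SD, n = 3) in Ha-ras tumors, 4.02 ± 0.821 (n = 3) in control livers without PB, 3.69 ± 0.541 (n = 3) in PB control livers and 2.60 ± 0.825 (n = 7) in Ctnnb1 tumors.

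Compared directly, PRKAA1_P-T172 in Ctnnb1 tumors was 2.27-fold below its level in Ha-ras tumors (95% interval 1.57 to 3.28, log2 -1.18 ± 0.25 SE, limma adjusted p = 0.00254). Across the array, 30 of 158 antibodies (19%) passed this comparison in either direction and 21 (13.3%) were lower, and 16 (10.1%) were lower without overlap. Of the 6 antibodies described here, 3 passed, all lower in Ctnnb1 tumors, and the same 3 did not overlap. The split of calls depends on the scaling, with 9 antibodies higher and 21 lower after centring, 19 higher and 9 lower without it, and 10 of each after scaling on the Alexa647 reference spots. Over all antibodies the median log2 difference came to -0.11 after centring, 0.16 without it and 0.07 with the reference spots. PRKAA1_P-T172 passed under all 21 alternatives run for this comparison, which spanned log2 -1.33 to -0.91 and adjusted p from 5.8e-04 to 0.0235. Even as deposited, without any scaling, its intensity was 2.20 to 3.31 in the Ha-ras tumors and 0.844 to 2.08 in the Ctnnb1 tumors, which do not overlap.

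Against their own control livers, the tumor groups had differences of opposite sign that did not pass. In Ha-ras tumors PRKAA1_P-T172 differed from control liver without PB by log2 0.51 ± 0.29 (adjusted p = 0.367), with 2 of 3 tumors above every control liver. In that comparison 22 of 158 antibodies (13.9%) passed and none of the 6 did. In Ctnnb1 tumors it differed from PB control liver by log2 -0.56 ± 0.25 (adjusted p = 0.292), and 6 of 7 tumors were below every control liver. Over the alternatives these differences ran from 0.17 (quantile normalization) to 0.77 in Ha-ras tumors and from -0.69 to -0.22 in Ctnnb1 tumors, where Alexa647 scaling gave -0.35, and none passed. For Ctnnb1 tumors against PB control livers limma called none of the 158 antibodies (0%), 25 (15.8%) had an unadjusted p under 0.05, and PRKAA1_P-T172 and PPARA_3 were among these. PB control livers differed from control livers without PB by log2 -0.11 ± 0.29 (adjusted p = 0.892), in a comparison that 3 of 158 antibodies (1.9%) and none of the 6 passed. The difference of the tumor effects, each against its own controls, was log2 -1.07 ± 0.39 (adjusted p = 0.143), and none of the 6 passed where 8 of 158 antibodies (5.06%) did. With array weights, which give noisier samples less influence, that difference was -1.11 with an adjusted p of 0.0419, and 16 of 158 antibodies passed. The other 27 of 28 alternatives did not call it, and adjusted p over all 28 reached 0.401.

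**Figure D2:**
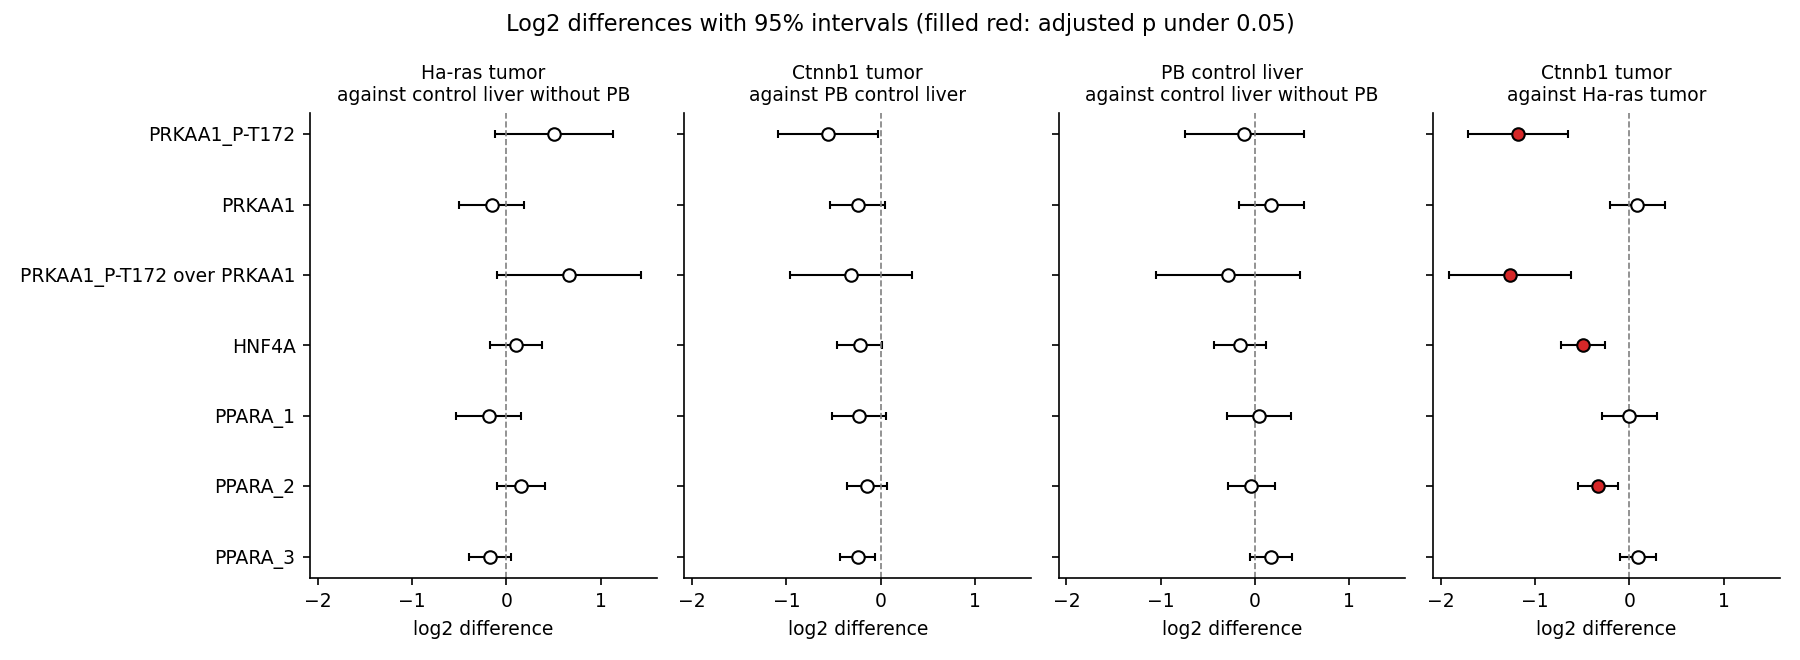
Log2 differences of the 6 antibodies and of the phosphosite relative to total PRKAA1 in 4 comparisons, with 95% intervals from limma. Filled red points have an adjusted p under 0.05 and occur in the comparison of Ctnnb1 with Ha-ras tumors, for PRKAA1_P-T172, its ratio to PRKAA1, HNF4A and PPARA_2.

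Total PRKAA1 did not follow its phosphosite. Its levels were 0.438, 0.277 and 0.347 in Ha-ras tumors, 0.355, 0.480 and 0.341 in control livers without PB and 0.404, 0.440 and 0.469 in PB control livers, and they ran from 0.329 through 0.363 to 0.403 in Ctnnb1 tumors. The PB control livers were highest on average, though the highest single sample was a control liver without PB. All PB control livers were above the 7 Ctnnb1 tumors, narrowly, at 0.4038 for the lowest against 0.4028 for the highest tumor. The samples of the arm without PB overlapped each other, as did the tumor groups. The mean was 0.437 ± 0.0324 in PB control livers, 0.392 ± 0.0766 in control livers without PB, 0.370 ± 0.0280 in Ctnnb1 tumors and 0.354 ± 0.0805 in Ha-ras tumors, and no comparison between neighbours in this order that was tested passed. Ctnnb1 tumors differed from PB control livers by log2 -0.24 ± 0.14 (adjusted p = 0.379), 13 of 158 antibodies (8.23%) being lower there without overlap. The difference between the tumors was log2 0.09 ± 0.14 (95% interval -0.21 to 0.37, adjusted p = 0.735), that of Ha-ras tumors from their controls -0.16 ± 0.16 (0.71) and that of PB from control liver 0.17 ± 0.16 (0.735). Across the 16 samples the log2 levels of PRKAA1 and PRKAA1_P-T172 had a Pearson correlation of -0.17.

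The ratio of phosphosite to total signal carried the pattern of the phosphosite. PRKAA1_P-T172 over PRKAA1 was 14.3, 21.9 and 13.6 in Ha-ras tumors, 14.0, 7.32 and 10.5 in control livers without PB and 9.83, 6.98 and 8.62 in PB control livers, and it ran from 3.45 through 7.34 to 10.8 in Ctnnb1 tumors. These are ratios of signals from different antibodies and not shares of phosphorylated protein. The array held no antibody to PRKAA2, which is alike around this site, so its part in the phosphosite signal is not known. All 7 Ctnnb1 tumors were below every Ha-ras tumor, and the Ha-ras tumors and their controls overlapped by 1 control liver. Ctnnb1 tumors were 2.41-fold lower than Ha-ras tumors (95% interval 1.54 to 3.77, log2 -1.27 ± 0.30, adjusted p = 0.00913). Over the 46 pairs of phosphosite and total protein on the array, 9 (19.6%) passed this comparison and 6 (13%) were lower without overlap. Without Ha-ras tumor 2, the sample with the highest ratio, the difference was -1.05 and did not pass (adjusted p = 0.0956). Subtracting each antibody's own blank gave log2 -1.40 (adjusted p = 0.0220), with ratios of 19.1 to 32.0 in Ha-ras and 3.86 to 15.2 in Ctnnb1 tumors. Against its own controls the ratio differed by log2 0.66 ± 0.36 in Ha-ras tumors (adjusted p = 0.218, 4 of 46 pairs or 8.7% passing) and by -0.32 ± 0.30 in Ctnnb1 tumors (adjusted p = 0.751, 1 pair or 2.17% passing). It differed by log2 -0.29 ± 0.36 between PB and control liver (adjusted p = 0.729), where limma called 0 of 46 pairs (0%) and 3 had an unadjusted p under 0.05. The difference of the tumor effects on the ratio was -0.98 ± 0.47 (adjusted p = 0.313), where 2 pairs (4.35%) passed.

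**Figure D3:**
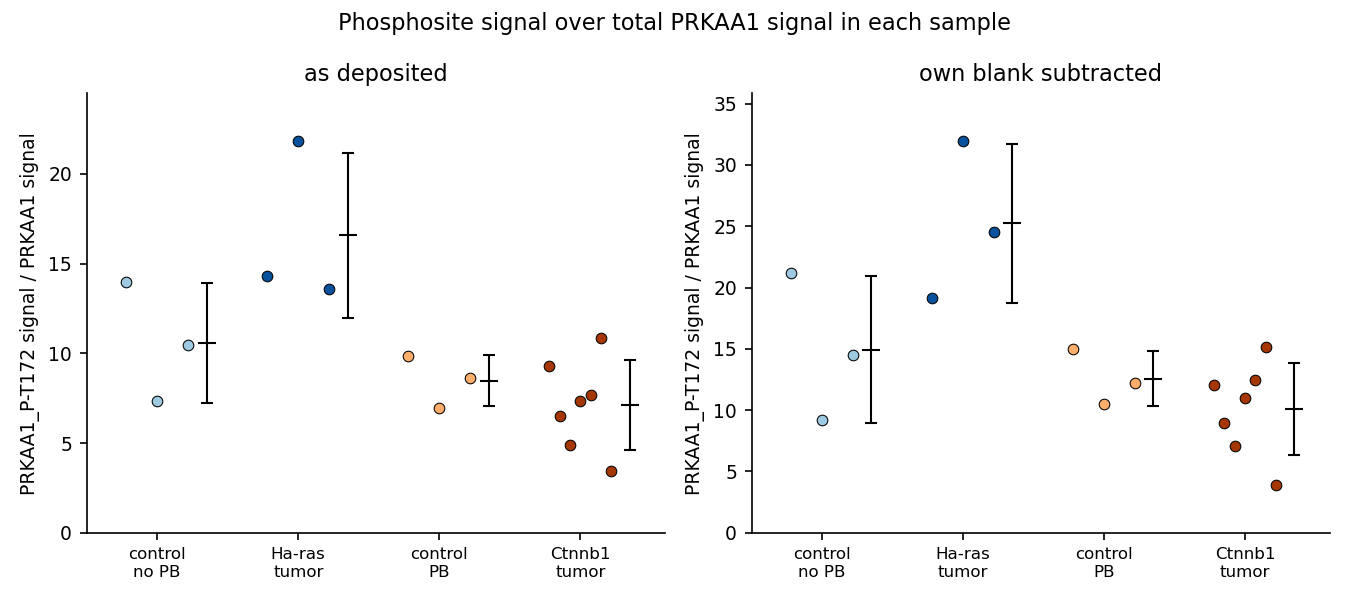
Signal of PRKAA1_P-T172 over that of PRKAA1 in each of the 16 samples, as deposited (left) and with each antibody's own blank subtracted (right), with the mean ± SD of each group. The 3 Ha-ras tumors lie at 13.6 to 21.9 as deposited, above all 7 Ctnnb1 tumors at 3.45 to 10.8.

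Few other proteins of AMPK signalling were on the array. Of 9 listed subunits and upstream kinases it held only MAP3K7 (TAK1), a kinase of stress and cytokine signalling that can act upstream of AMPK. MAP3K7 passed as lower in Ctnnb1 than Ha-ras tumors (log2 -0.32 ± 0.11, adjusted p = 0.0472), but its signal was under 2 times the blank in 7 of 7 Ctnnb1 and 2 of 3 Ha-ras tumors, so no fold is given, while MAP3K7_P-S412 was at -0.04 ± 0.17 (adjusted p = 0.909). Neither passed in the other comparisons. Of 25 listed substrates and downstream proteins 4 were measured, by 9 antibodies to CREB1, MTOR, RPS6KB1 and RPS6. MTOR, the kinase of the growth-promoting complex that AMPK restrains, gave the only calls, at its site MTOR_P-S2448. This site was 1.79-fold higher in Ha-ras tumors than in their control livers (log2 0.84 ± 0.15, adjusted p = 0.0024) and, in Ctnnb1 tumors, 1.74-fold below Ha-ras tumors (log2 -0.80 ± 0.13, adjusted p = 2.9e-04). Total MTOR differed in the same directions without passing, by log2 0.39 ± 0.14 (limma adjusted p = 0.101) and -0.26 ± 0.12 (0.170). The ribosomal S6 kinase site RPS6KB1_P-T389 differed between the tumors by -0.16 ± 0.31 and RPS6_P-S235/S236, on a ribosomal protein that this kinase phosphorylates, by -0.15 ± 0.43, and neither passed. The median log2 difference of the 9 antibodies between the tumors was -0.16, beside -0.11 over all 158.

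HNF4A was lowest in Ctnnb1 tumors. Its levels were 3.53, 3.49 and 3.15 in Ha-ras tumors, 3.27, 3.32 and 2.90 in control livers without PB and 2.66, 2.83 and 2.99 in PB control livers, and they ran from 2.03 through 2.45 to 2.78 in Ctnnb1 tumors. No Ctnnb1 tumor reached any Ha-ras tumor or any control liver without PB, and 5 of 7 were below every PB control liver. In descending order, the means were those of Ha-ras tumors (3.39 ± 0.208), control livers without PB (3.17 ± 0.231), PB control livers (2.83 ± 0.165) and Ctnnb1 tumors (2.43 ± 0.308), and the groups next to each other in this order did not differ beyond their spread by the test. These steps were log2 0.10 ± 0.13 for Ha-ras tumors against their controls (adjusted p = 0.755), -0.16 ± 0.13 for PB against control liver (0.681) and -0.22 ± 0.11 for Ctnnb1 tumors against PB control livers (0.324).

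Between the tumors HNF4A was 1.40-fold lower in the Ctnnb1-mutated ones (95% interval 1.19 to 1.65, log2 -0.49 ± 0.11, adjusted p = 0.00442), with 7 of 7 below every Ha-ras tumor. It passed under 17 of 21 alternatives. Among the 4 that lost the call were no centring (log2 -0.22, adjusted p = 0.212), scaling on the Alexa647 spots (-0.31, 0.124) and the same with own blanks subtracted (-0.33, 0.0848). As deposited, the intensities were 1.48 to 1.87 in Ha-ras and 1.35 to 1.55 in Ctnnb1 tumors and overlapped. The difference of the tumor effects was log2 -0.33 ± 0.17 (adjusted p = 0.321).

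**Figure D4:**
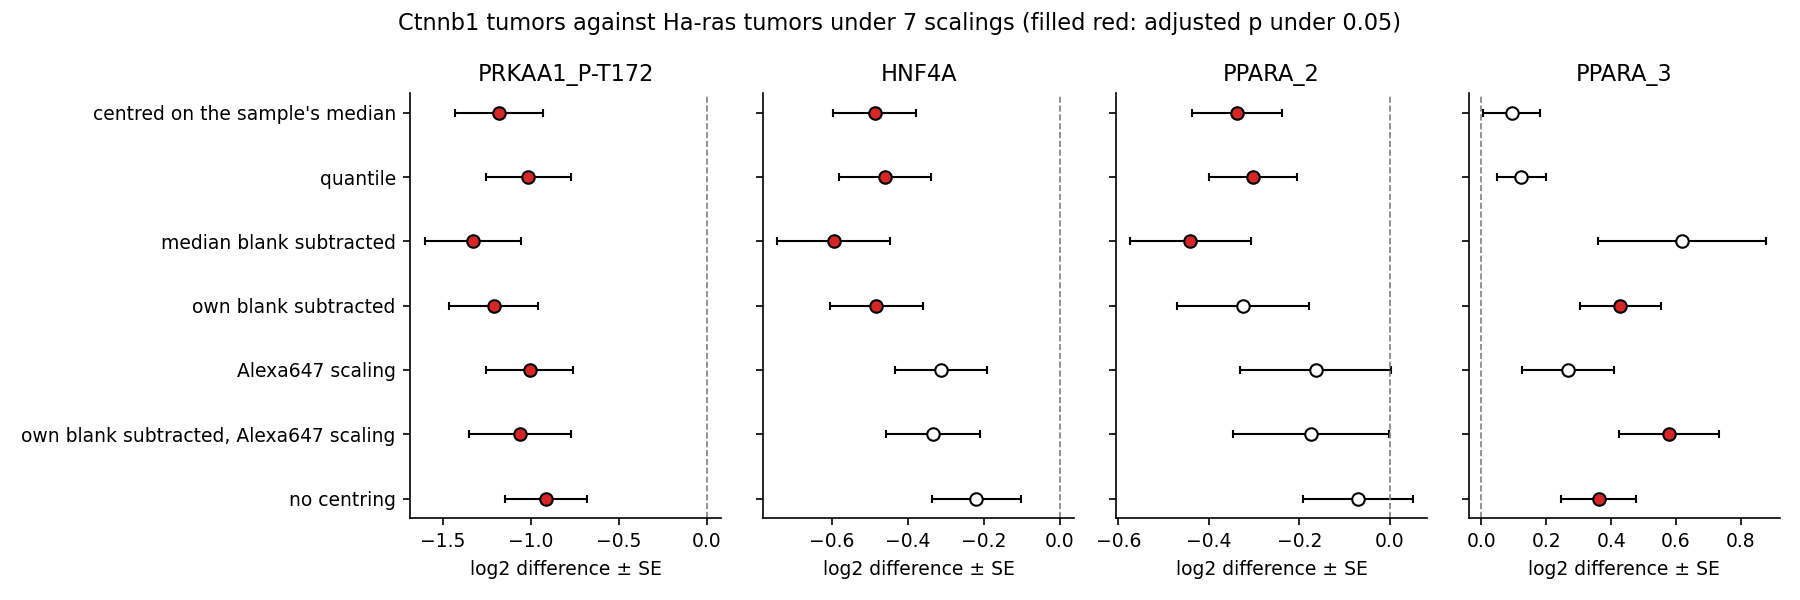
Log2 difference of Ctnnb1 from Ha-ras tumors ± SE for PRKAA1_P-T172, HNF4A, PPARA_2 and PPARA_3 under the scalings named on the vertical axis, with filled red points at an adjusted p under 0.05. PRKAA1_P-T172 passed under each of them. HNF4A and PPARA_2 did not pass without centring or with Alexa647 scaling, whether or not own blanks were subtracted as well. PPARA_2 also did not pass with only the own blank subtracted, and PPARA_3 passed, as higher, in 3 settings.

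Between the tumors, 2 of 5 antibodies to products of genes that HNF4A controls passed, both higher in Ctnnb1 tumors where HNF4A was lower. Across the array, 30 of 158 antibodies (19%) passed this comparison in either direction and 9 (5.7%) passed as higher. Of 24 listed partners and targets 4 were measured, by 5 antibodies to cytochromes P450 and a glucuronosyltransferase, all named by human symbols, so the mouse family members they bind are not known here. CYP2C8 was 2.68-fold lower in Ha-ras tumors than in their controls (log2 -1.42 ± 0.25, adjusted p = 0.0024) and 5.62-fold higher in PB control liver than in control liver without PB (log2 2.49 ± 0.25, adjusted p = 1.2e-05). CYP2C8 was also 12.1-fold higher in Ctnnb1 than in Ha-ras tumors (log2 3.59 ± 0.21, adjusted p = 8.7e-09), and CYP3A4_2 passed as higher (log2 2.23 ± 0.56, adjusted p = 0.00945), with no fold given since only 1 of 3 Ha-ras tumors read at least 2 times the blank. CYP3A4_1 (0.44 ± 0.18, adjusted p = 0.117), CYP2D6 (0.07 ± 0.11, 0.711) and UGT1A1 (0.53 ± 0.27, 0.214) did not pass between the tumors. The median of the 5 antibodies was log2 0.53 there, opposite in sign to that of HNF4A, beside -0.11 over all antibodies. For PB control liver against control liver without PB it was higher, at 0.93, beside 0.06 over all antibodies. There CYP3A4_2 (1.96 ± 0.66) and UGT1A1 (0.93 ± 0.315) did not pass (adjusted p = 0.2665 for each). In Ha-ras tumors against their controls the median was -0.31, beside -0.002 over all antibodies. Genotype and PB cannot be told apart between the tumors. For Ctnnb1 tumors against PB control livers the median was -0.36, beside -0.14 over all antibodies, and none of the 5 passed.

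The 3 antibodies to PPARA did not give 1 picture. PPARA_2, the bright one, had levels of 2.65, 2.36 and 3.38 in Ha-ras tumors, 2.49, 2.44 and 2.53 in control livers without PB and 2.22, 2.51 and 2.55 in PB control livers, and it ran from 2.05 through 2.19 to 2.34 in Ctnnb1 tumors. The Ctnnb1 tumors were all below the Ha-ras tumors and overlapped the PB control livers through PB control liver 4. Ha-ras tumor 3 stood above the rest of the samples in level, while its intensity as deposited was 1.585, beside 1.571 in PB control liver 6. In Ctnnb1 tumors PPARA_2 was 1.26-fold below Ha-ras tumors, 7 of 7 being lower (95% interval 1.09 to 1.46, log2 -0.34 ± 0.10, adjusted p = 0.0257). Without Ha-ras tumor 3 the difference was -0.19 and did not pass (adjusted p = 0.214). It did not pass without centring (-0.07, adjusted p = 0.722), with Alexa647 scaling (-0.16, 0.642) or with the own blank subtracted (-0.32, 0.176), and 14 of 21 alternatives kept the call.

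In order of their means, PPARA_2 was at 2.80 ± 0.525 in Ha-ras tumors, 2.49 ± 0.0444 in control livers without PB, 2.43 ± 0.179 in PB control livers and 2.19 ± 0.109 in Ctnnb1 tumors, and neighbours in this order did not differ by the test. The differences were log2 0.15 ± 0.12 for Ha-ras tumors against their controls (adjusted p = 0.538), -0.04 ± 0.12 for PB against control liver (0.906) and -0.15 ± 0.10 for Ctnnb1 tumors against PB control livers (0.441). The difference of the tumor effects was -0.30 ± 0.15 (0.321).

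PPARA_1, faint throughout, had levels of 0.336, 0.237 and 0.412 in Ha-ras tumors, 0.396, 0.362 and 0.34 in control livers without PB and 0.407, 0.368 and 0.354 in PB control livers, and it ran from 0.279 through 0.328 to 0.345 in Ctnnb1 tumors. The Ha-ras tumors spanned the range of all other samples, and the 7 Ctnnb1 tumors were below every PB control liver. Across the array, 13 of 158 antibodies (8.23%) were lower in that comparison without overlap. The signal was under 2 times the blank in 2 of 7 Ctnnb1 tumors, 2 of 3 PB control livers and 1 of 3 Ha-ras tumors. Ctnnb1 and Ha-ras tumors differed by log2 -0.0003 ± 0.13 (95% interval -0.29 to 0.29, adjusted p = 0.998), and Ctnnb1 tumors and PB control livers by -0.23 ± 0.13 (adjusted p = 0.399). The Ha-ras tumors differed from their controls by -0.19 ± 0.16 (0.594) and PB from control liver by 0.04 ± 0.16 (0.914).

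PPARA_3, the faintest, had levels of 0.299, 0.263 and 0.305 in Ha-ras tumors, 0.307, 0.346 and 0.322 in control livers without PB and 0.365, 0.390 and 0.341 in PB control livers, and it ran from 0.285 through 0.303 to 0.351 in Ctnnb1 tumors. The Ha-ras tumors were below every control liver of both arms and overlapped the Ctnnb1 tumors, and 6 of 7 Ctnnb1 tumors were below every PB control liver. In all 3 Ha-ras tumors, 2 of 3 PB control livers and 1 of 7 Ctnnb1 tumors the signal was under 2 times the blank. With the Ha-ras tumors set at that limit, the mean of PPARA_3 in control livers without PB was 1.02-fold above theirs, which takes no account of the spread. The measured difference of Ha-ras tumors from these controls was log2 -0.17 ± 0.10 and did not pass (adjusted p = 0.391). Across the array, 15 of 158 antibodies (9.49%) were lower in Ha-ras tumors than in their controls without overlap. Ctnnb1 tumors differed from PB control livers by log2 -0.25 ± 0.09 (adjusted p = 0.250) and PB from control liver by 0.17 ± 0.10 (0.598). The blank of this antibody, which PPARA_1 and PPARA_2 share, was itself highest on average in the PB control livers, at 0.0993 to 0.120 intensity units against 0.0688 to 0.114 in Ctnnb1 tumors, and with that blank subtracted the difference of Ctnnb1 tumors from PB control livers came to log2 -0.02 for PPARA_3 (adjusted p = 0.964) and -0.03 for PPARA_1 (0.964).

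The tumor difference of PPARA_3 depended on blank subtraction and on scaling. It was log2 0.09 ± 0.09 (adjusted p = 0.552) as analysed here, and 0.62 (0.114) with the median blank of the sample subtracted. It came to 0.43 (adjusted p = 0.0289) with the own blank subtracted, to 0.58 (0.0219) with Alexa647 scaling in addition and to 0.36 (0.0412) without centring, so that PPARA_3 was higher in Ctnnb1 tumors in those 3 settings, in which PPARA_2 did not pass. Across the 16 samples the log2 levels of PPARA_1 correlated with those of PPARA_3 at 0.61 and of PPARA_2 at 0.42, and PPARA_2 with PPARA_3 at 0.08. In the same order, these correlations were 0.40, 0.41 and -0.28 with own blanks subtracted and 0.48, 0.58 and 0.39 around the group means. Of the 20 listed partners and targets of PPARA only RXRA, its DNA-binding partner, was measured, and it passed in none of the 5 comparisons (log2 -0.08 ± 0.10 between the tumors, adjusted p = 0.661).

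Among the 6 antibodies the spread within groups differed. The pooled within-group SD of the log2 level was 0.10 for PPARA_3, 0.13 for PPARA_2 and 0.15 for HNF4A, 0.19 for PPARA_1, 0.20 for PRKAA1 and 0.39 for PRKAA1_P-T172, beside a median of 0.21 over all 158 antibodies. PRKAA1_P-T172 ranked 132nd from the least variable and PPARA_3 ranked 6th. Blanks were not subtracted from these levels, which narrows the log2 range of faint antibodies.

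**Figure D5:**
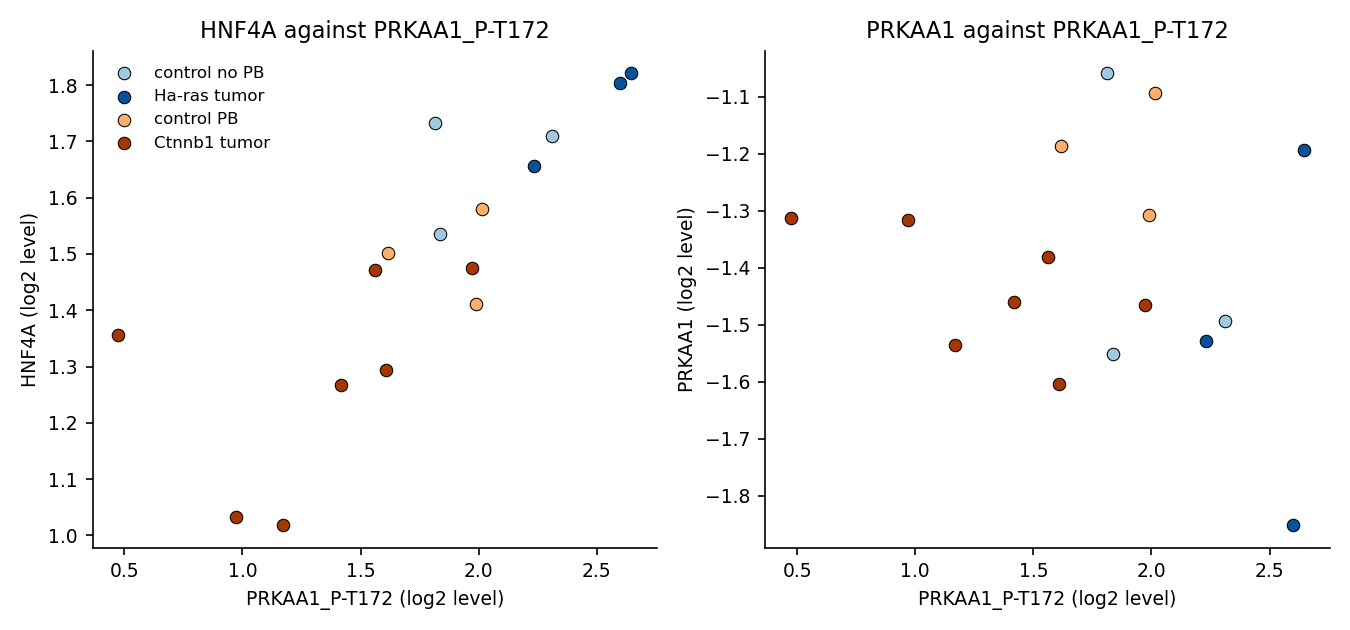
Log2 level of HNF4A (left) and of PRKAA1 (right) against that of PRKAA1_P-T172 in the 16 samples, coloured by group. HNF4A and the phosphosite had a correlation of 0.80 over all samples and 0.44 around their group means, and PRKAA1 and the phosphosite had -0.17.

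The antibody most like HNF4A over the 16 samples was PRKAA1_P-T172, and the reverse held too for the correlation over all samples, among the 125 other antibodies with a median signal of at least 2 times the blank. Their log2 levels correlated at 0.80 over all samples, at 0.44 around the group means and at 0.68 with own blanks subtracted, and each sample's scaling enters both values. Around the group means HNF4A was closer to MAP2K1_P-S217/S221 (0.49), and PRKAA1_P-T172 to RPS6KA1_P-S380 (0.46) and MAP2K4 (0.46). HNF4A was next most like MAP2K1_P-S217/S221, the activation site of the kinase MEK1, at 0.75, and the transcription factor STAT3, at 0.68. PRKAA1_P-T172 was next most like RPS6KA1_P-S380, a site of a kinase downstream of ERK, at 0.78, and the stress kinase kinase MAP2K4, at 0.75. These 4 antibodies were picked by correlation over all samples, which includes the differences between groups. Around the group means STAT3 correlated with HNF4A at 0.16. That the 4 shared the tumor difference is thus no separate finding, since their limma p-values are not independent of the choice. Between the tumors they differed by log2 -0.96 ± 0.15 for MAP2K1_P-S217/S221 (adjusted p = 1.9e-04) and -0.88 ± 0.15 for STAT3 (4.2e-04). The values were -0.90 ± 0.21 for RPS6KA1_P-S380 (0.00482) and -0.29 ± 0.10 for MAP2K4 (0.0472).

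PRKAA1 was most like the cyclin CCNE2 (0.82), the receptor MET (0.71) and STAT3_P-Y705 (0.65), none of which passed between the tumors. PPARA_2 was most like RPS6KA3_P-T353/T356 (0.80) and the kinase JAK1 (0.79), at 0.56 and 0.79 around the group means. Both passed as lower in Ctnnb1 than Ha-ras tumors (log2 -1.06 ± 0.14 and -0.33 ± 0.11, limma adjusted p = 5.4e-05 and 0.0472). That is no separate finding either, since they were picked by correlation over all samples. PPARA_1 was most like the phosphatase PTPN11 (0.83), CYP1A1_2 (0.80) and the mitotic kinase AURKB (0.80), and PPARA_3 was most like the histone deacetylases HDAC2 (0.81) and HDAC3 (0.76), with STAT5A at 0.77 between them. The lists of the 3 PPARA antibodies had no antibody in common.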

How the data were processed

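The authors deposited 1 intensity (relative fluorescence) per antibody and sample, in 183 readings per sample of 158 antibodies, 19 blanks and 6 Alexa647 references. Not given in the sources used here are spot quantification and any scaling before deposit. The deposited series table holds log2 values. For the 6 antibodies these match the log2 of the blank-subtracted intensity, scaled by a factor for each sample, up to a constant for each antibody and arm. What that constant stands for was not checked. Each antibody's own blank was taken from that match, made after the data had been seen.

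Here, intensities were log2 transformed and centred on each sample's median over the 155 antibodies positive throughout, without blank subtraction. The limma fit (R 4.3.3, limma 3.58.1) of 4 group means had 12 residual and 2.65 prior degrees of freedom. P-values were adjusted (Benjamini-Hochberg) over 158 antibodies, or 46 phosphosite pairs, within each comparison, with a threshold of 0.05. The script was tested on simulated data. Named antibodies were all members, list antibodies that passed, others of those lists as contrast, and the 3 nearest by correlation, of which 1 is not reported here. Members, lists and tests were chosen with earlier results of these data known. No sequences are shown, since antibody epitopes are not given. Alternatives were no centring, Alexa647 scaling, quantile normalization, blank subtraction, a floor for non-positive values, leaving out dim antibodies, array weights, the compared groups alone, the authors' table, replicate numbers as a block and leaving out each sample.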

Additional observations from a re-analysis of the deposited data

How the results depend on the processing

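Over the 6 antibodies, the phosphosite ratio and the 5 comparisons, 644 of 725 alternative values kept their direction and their side of the threshold. This share does not measure stability, since some alternatives could not change a value, such as sample scaling for the ratio. Most items also had no call to lose. Calls were lost in 13 values, all between the tumors (4 for HNF4A, 7 for PPARA_2 and 2 for the ratio), and gained in 4. PRKAA1_P-T172 between the tumors kept its call throughout. The labels give tumors and control livers shared replicate numbers and do not state what these mean. Deviations of same-numbered samples correlated at 0.61, 0.09 and 0.01 in the arm without PB and at 0.10, 0.13 and 0.23 in the PB arm. Those of differently numbered samples correlated at -0.50 to 0.38 and at -0.30 to 0.29. With so few same-numbered samples these values cannot decide whether the numbers are pairs, and the main fit did not pair them. Between the tumors, a block of the replicate number held tumors only. It set Ctnnb1 tumors against same-numbered Ha-ras tumors of the other arm, a link that the labels do not state. Ctnnb1 tumors without a same-numbered Ha-ras tumor did not enter that difference. With this block 1 of 6 antibodies (PRKAA1_P-T172, log2 -1.24, adjusted p = 0.0233) passed between the tumors in place of 3, over all antibodies 8 of 158 in place of 30, and the ratio was not called (0, at -1.28, adjusted p = 0.0618). Against control livers the block joined same-numbered samples of an arm, and it put PRKAA1_P-T172 in Ctnnb1 tumors against PB control livers at -0.22 (0.653). Between the tumors HNF4A was at -0.65 (0.0736) and PPARA_2 at -0.36 (0.317), and the block changed no other call. Alexa647 scaling also left 1 antibody, PRKAA1_P-T172. Array weights called 1 of the 6 in the difference of tumor effects, and 16 in place of 8 of all 158. With only the compared groups in the fit PPARA_2 did not pass (adjusted p = 0.0917). When samples were left out in turn, 2 to 3 of the 6 antibodies and 0 to 1 ratio passed between the tumors, and 0 did in the other comparisons. Without dim antibodies PPARA_1 and PPARA_3 give no value. The causes of these changes were not tested.

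The values that changed sign numbered 64, all without a call (lowest adjusted p = 0.267). In log2, for Ha-ras tumors against controls, Alexa647 scaling gave 0.00073 for PPARA_1, 0.019 for PPARA_3 and 0.034 for PRKAA1. For Ctnnb1 tumors against PB control livers it gave 0.065 for PPARA_2, own blanks with Alexa647 scaling gave 0.18 for PPARA_1, 0.089 for PPARA_2, 0.18 for PPARA_3 and 0.017 for PRKAA1, the authors' table gave 0.16, 0.071 and 0.17 for PPARA_1 to PPARA_3, and the block gave 0.017 for the ratio. For PB against control liver, no centring gave 0.050 for HNF4A, 0.17 for PPARA_2 and 0.10 for PRKAA1_P-T172, and Alexa647 scaling gave 0.12 for PPARA_2 and 0.040 for PRKAA1_P-T172. Own blanks with Alexa647 scaling gave -0.050 for PPARA_1, 0.088 for PPARA_2 and 0.10 for PRKAA1_P-T172 there, and PPARA_1 was at -0.10 with the median blank and -0.17 with the own blank subtracted. Between the tumors PPARA_1, at a difference near 0, came to 0.27 without centring, 0.17 with Alexa647 scaling, 0.10 and 0.17 with the median and own blank subtracted, 0.32 with own blank and Alexa647, 0.090 with quantile normalization, 0.0032 with array weights and 0.047 with the block, and PRKAA1 came to -0.013 with array weights. In the difference of tumor effects PPARA_1 came to 0.014 without centring, 0.20 and 0.35 with the median and own blank, 0.37 with own blank and Alexa647, 0.37 in the authors' table and 0.050 with quantile normalization. PPARA_3 came to 0.44, 0.39, 0.42, 0.42 and 0.012, and PRKAA1 to 0.28, 0.029, 0.055, 0.056 and 0.074, in those last 5 settings. Leaving out samples in turn gave ranges across 0 for PPARA_1 (-0.37 to 0.027 in Ha-ras tumors against controls, -0.016 to 0.099 for PB against control liver, -0.22 to 0.18 between the tumors, -0.26 to 0.14 in the difference), for PRKAA1 (-0.32 to 0.0076 in Ha-ras tumors against controls, -0.078 to 0.25 between the tumors, -0.25 to 0.079 in the difference), and for PB against control liver in PPARA_2 (-0.075 to 0.025) and PRKAA1_P-T172 (-0.20 to 0.049).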
